A study of Mus musculus with 16 samples.

Results

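The effect of the Aire knockout was examined in medullary thymic epithelial cells (mTEC) with low surface CD80. The comparison set 2 arrays of CD80lo mTEC from Aire-knockout mice against 2 arrays of CD80lo mTEC from wild-type mice, 4 of the 16 arrays of the study, and the arrays were chosen by their labelled genotype and sort alone. Of the 12422 probe sets on the array that are not controls, 9319 were bright enough to be tested. In this comparison 26 probe sets were higher and 4 were lower in the knockout. Skeletal muscle genes, led by the actin gene Acta1, and the imprinted genes Meg3, Igf2 and Cdkn1c were among the higher ones, and the protease gene Ctse was among the lower ones.

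Medullary epithelial cells of the thymus express genes that are otherwise restricted to single tissues, and developing T cells that react to these self-antigens are removed or diverted. Aire is a nuclear protein that many of these tissue-restricted genes need in order to be expressed, and it is made mainly by mature mTEC with high CD80. CD80 is a costimulatory surface protein, and the CD80lo fraction holds the less mature cells together with other mTEC that have little of it. The comparison asks what the loss of Aire changes in a fraction with little Aire of its own.

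Total RNA of sorted cells was hybridised to mouse oligonucleotide arrays. The groups used here, with 2 arrays each, were Aire-knockout CD80lo mTEC, wild-type CD80lo mTEC, Aire-knockout CD80hi mTEC and wild-type CD80hi mTEC. Unfractionated mTEC, cortical epithelial cells, thymic dendritic cells and thymic macrophages, all wild type, gave the other 8 arrays and entered the shared estimate of the spread. The labels do not give the knockout allele, the strain, the age or the sex of the mice, the surface markers of the mTEC gate besides CD80, or whether the arrays of a group came from separate animals. The p-values then measure the spread between these samples, which may be technical, and the number of arrays limits the precision. Fold changes are differences of log2(signal + 4.8), knockout minus wild type, with the standard error of the limma fit after ±, and they understate changes of dim genes.

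Several measurements on the arrays themselves bear on the comparison. Aire gave signals of 127.3 and 83.0 on the knockout CD80lo arrays, against 195.6 and 94.4 on the wild-type CD80lo arrays (-0.39 ± 0.51, adjusted p = 0.999). On the CD80hi arrays it gave 1589.1 and 1385.3 in knockout and 1828.6 and 1704.5 in wild type (-0.25 ± 0.51, adjusted p = 0.977). The probe set thus still gave a signal in the knockout. Where its probes lie relative to the deleted part of the gene is not given in the labels, so the signal does not check the genotype. Cd80 gave 9.5 and 13.7 on the knockout CD80lo arrays and 13.7 and 6.6 on the wild-type ones, all below every CD80hi array, which lay between 61.3 and 104.5. The epithelial markers Epcam, Krt8, Krt18, Krt19, Foxn1, Cldn3 and Cldn4 exceeded 17.3, the 40th percentile of all signals and the level of the filter, on all 4 arrays. Krt14, a basal keratin, was below it on all 4. Among the 4 CD80lo arrays, knockout array 1 stood apart in its control probe sets. The 18S ribosomal RNA control at the 3′ end gave 1893.2 and 286.6 on the knockout CD80lo arrays, against 341.8 and 376.3 on the wild-type ones. On the CD80hi arrays it gave 562.0 and 48.2 in knockout, against 147.7 and 159.3 in wild type. Array 1 was thus the higher one in both knockout pairs. The Pearson r between replicates was 0.918 in knockout and 0.964 in wild-type CD80lo cells. Knockout CD80lo array 1 also had the higher signal of its pair for 21 of the 26 higher probe sets. Results are therefore also given without it. The ratio of the 3′ to the 5′ control probe set of Actb, a sign of RNA quality, was 6.69 and 7.24 on the knockout CD80lo arrays, against 11.02 and 8.37 on the wild-type ones. It was thus lower on both knockout arrays, and its part in the results was not tested. The labels give no sex, and Eif2s3y, a gene of the Y chromosome, gave 36.7 and 149.1 in knockout CD80lo cells, against 8.2 and 0.5 in wild-type ones (3.27 ± 0.67, adjusted p = 0.0576). In knockout CD80hi cells it gave 54.3 and 233.3, against 4.2 and 2.0 (3.92 ± 0.67, adjusted p = 0.00435). Its probe set carries a suffix that marks shared probes. Of other genes of the Y chromosome, Uty gave 1.9 and 8.1 in knockout CD80lo cells, against 1.9 and 1.3. Kdm5d gave 1.3 and 2.8, against 1.3 and 1.4, and both were too dim to be tested. The part of sex in the other differences was not tested.

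Of the 9319 probe sets, 0.279% were higher and 0.0429% lower (0.322% in all) in knockout CD80lo cells at a Benjamini-Hochberg adjusted p under 0.05 in limma. Before adjustment, 299 had p under 0.05 and were higher (3.21%), and 218 were lower (2.34%), 5.55% together. The median difference over all tested probe sets was -0.05 on the log2 scale. The 30 probe sets that passed comprised 28 with a single gene, for 23 higher and 2 lower genes, and 2 without one. On each of them both knockout arrays lay outside the range of both wild-type arrays. For 9 of the 26 higher probe sets both wild-type arrays were below the filter level of 17.3, so that the change ran from a dim signal. The probe sets of Meg3, Myh1, Twist1 and Ckm, 4 of the 26, entered the test only through the knockout CD80lo arrays, since fewer than 2 of the other 14 arrays exceeded 17.3. A probe set admitted in this way had to be high in the knockout. Without any filter the same probe sets of Meg3, Myh1, Twist1 and Ckm passed as well. The counts depended on single arrays. Without knockout array 1 there were 13 higher and 6 lower probe sets, 13 of the 19 being among the 30. Leaving out knockout array 2 gave 25 calls, leaving out wild-type array 1 gave 11, and leaving out wild-type array 2 gave 8. A fit of the 4 arrays alone gave 16 calls. The probe sets of Acta1, Meg3, Gsto1 and Epha2, both of Ctse and 1 without a gene, 7 in all, passed under every alternative setting tried and without each of the 4 arrays in turn.

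**Figure D1:**
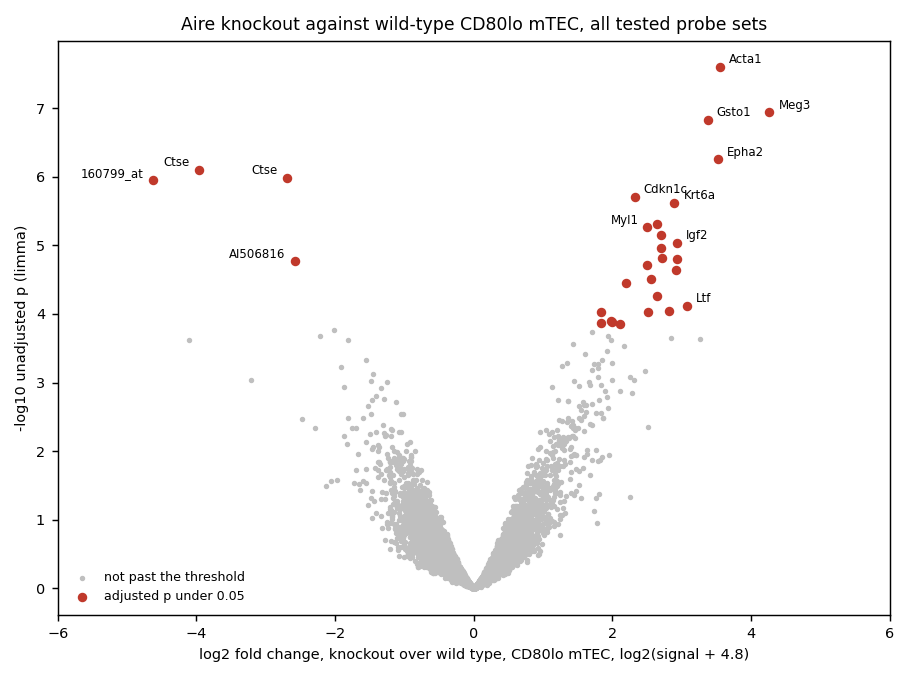
Log2 fold change (knockout over wild type, CD80lo mTEC) on the horizontal axis against -log10 of the unadjusted limma p on the vertical axis, 1 point per tested probe set (9319), with the 30 probe sets past the adjusted threshold in red and a selection of them named. The 26 higher probe sets span 1.83 to 4.27, and the 4 lower ones -4.63 to -2.58.

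Striated muscle genes gave the largest number of listed genes past the threshold. The lists were chosen with earlier results of these data known, so their counts describe these data and are no independent support. Acta1, the alpha-actin of the skeletal muscle thin filament, gave signals of 636.3 and 508.1 on the knockout CD80lo arrays, against 52.4 and 37.3 on the wild-type CD80lo arrays (3.55 ± 0.32, adjusted p = 0.000233). Both knockout arrays were high and close to each other. In sorted bulk samples, more cells that express a gene and more of its RNA per cell cannot be told apart. Myl1, a myosin light chain of fast fibres, gave 279.7 and 250.7 in knockout and 38.4 and 47.4 in wild-type CD80lo cells (2.51 ± 0.35, adjusted p = 0.00463). Myh4 and Myh1 encode myosin heavy chains of fast skeletal muscle. Myh4 gave 93.1 and 111.6 in knockout and 13.1 and 10.4 in wild-type CD80lo cells (2.69 ± 0.39, adjusted p = 0.00543). Myh1 gave 55.2 and 68.9, against 9.3 and 12 (2.11 ± 0.41, adjusted p = 0.043). For both myosins the wild-type arrays were below the filter level. These genes are close relatives, and the sources used here do not say whether the probes tell them apart. Their patterns did differ in CD80hi cells, where Myh4 gave 200.4 and 133.7 in knockout and 223.9 and 261.2 in wild-type cells, while Myh1 stayed at 7.1 and 3.0, against 5.6 and 12.4. A probe set of Ckm, the muscle creatine kinase, also passed at 24.3 and 18.9, against 2.3 and 2.9 (1.83 ± 0.35, adjusted p = 0.043), with no other array over the filter level. The brighter Ckm probe set did not differ in this way, at 12.5 and 15.3 in knockout and 12 and 22.8 in wild-type cells. Ckm was named after its values were seen, and its call was lost without any one of the 4 arrays (adjusted p up to 0.353).

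The striated muscle list has 49 genes on the array, of which 41 were tested, 2 of them, Myh1 included, only because the knockout CD80lo arrays carried them past the filter. By the brightest probe set per gene, 4 were higher (Acta1, Myl1, Myh4 and Myh1), none was lower and 37 did not pass. Over all 6922 genes 0.303% were higher and 0.0289% lower. Before adjustment (p under 0.05) the muscle genes numbered 14 higher and 0 lower, where 3.28% and 2.21% of all genes were. The members that did not pass after adjustment included Ryr1, the calcium release channel of the sarcoplasmic reticulum, with 68.8 and 34.5 in knockout and 6.6 and 6.4 in wild-type CD80lo cells (2.25 ± 0.53, adjusted p = 0.136). Tnnc2, troponin C of fast fibres, gave 86.2 and 80.1, against 28.7 and 17.0 (1.70 ± 0.50, adjusted p = 0.347). Actc1, the cardiac actin, gave 309.2 and 294.5, against 138.8 and 106.4 (1.28 ± 0.29, adjusted p = 0.107). Myog, a transcription factor of muscle differentiation, gave 171.5 and 178.6, against 103.5 and 91.9 (0.81 ± 0.35, adjusted p = 0.842). Values of the acetylcholine receptor subunit gene Chrna1 were 23.8 and 18, against 11.4 and 4.5 (1.06 ± 0.39, adjusted p = 0.614). The list thus had contractile, calcium-handling and neuromuscular members with separated groups, while other members were flat or lower. Myod1 gave 30.9 and 46.2 in knockout and 32.0 and 41.5 in wild-type CD80lo cells (0.05). Chrne gave 206.0 and 140.2, against 189.0 and 138.0 (0.07), and Casq2 gave 4.6 and 21.0, against 18.6 and 23.2 (-0.72). Actn3 was lower on both knockout arrays, at 279.1 and 226.3, against 322.4 and 300.0 (-0.30). Both knockout arrays lay above both wild-type arrays for 27 of the 49 genes without any filter (55.1%) and below for 4 (8.16%), beside 16% and 18.2% of all genes on the array. The list median was 0.41 without the filter and 0.51 among the tested genes, beside -0.05 over all tested genes.

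Single arrays decided part of these calls. Acta1 passed without each of the 4 arrays. Myl1 lost its call without knockout array 1, wild-type array 1 or wild-type array 2 (adjusted p up to 0.0872), Myh4 without any array but knockout array 1 (up to 0.118), and Myh1 without any one of the 4 (up to 0.39). The number of muscle genes past the threshold was 2 without knockout array 1, 2 without knockout array 2 and 1 without either wild-type array, and the list median stayed between 0.48 and 0.62.

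The windows of 250 bases upstream of the RefSeq start (GRCm38.p6) are shown for the 4 muscle genes that rose together and for Meg3, which had the largest rise. They lie at chr8:123894776-123895025 (minus strand) for Acta1, chr1:66945057-66945306 (minus strand) for Myl1, chr11:67237562-67237811 (plus strand) for Myh4, chr11:67199852-67200101 (plus strand) for Myh1 and chr12:109540746-109540995 (plus strand) for the first of 2 listed Meg3 starts. Each is written 5′ to 3′ towards the start, in lower case, and capitals mark CArG boxes (the motif of serum response factor) and E-boxes (CANNTG, the motif of the MyoD family).
Acta1: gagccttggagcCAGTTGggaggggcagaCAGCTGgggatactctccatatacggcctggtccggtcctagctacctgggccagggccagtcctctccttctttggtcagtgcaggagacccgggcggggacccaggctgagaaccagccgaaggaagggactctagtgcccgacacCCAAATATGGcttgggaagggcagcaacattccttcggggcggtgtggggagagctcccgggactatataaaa
Myl1: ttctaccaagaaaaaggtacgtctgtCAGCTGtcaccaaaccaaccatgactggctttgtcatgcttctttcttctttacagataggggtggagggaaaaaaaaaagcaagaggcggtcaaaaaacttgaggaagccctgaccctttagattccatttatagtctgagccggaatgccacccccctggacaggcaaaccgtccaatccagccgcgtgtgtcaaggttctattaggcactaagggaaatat
Myh4: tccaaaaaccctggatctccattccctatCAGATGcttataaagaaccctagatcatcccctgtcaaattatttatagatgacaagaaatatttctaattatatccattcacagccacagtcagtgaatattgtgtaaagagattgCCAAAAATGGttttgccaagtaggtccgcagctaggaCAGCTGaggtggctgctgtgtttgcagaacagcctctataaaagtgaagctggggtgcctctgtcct
Myh1: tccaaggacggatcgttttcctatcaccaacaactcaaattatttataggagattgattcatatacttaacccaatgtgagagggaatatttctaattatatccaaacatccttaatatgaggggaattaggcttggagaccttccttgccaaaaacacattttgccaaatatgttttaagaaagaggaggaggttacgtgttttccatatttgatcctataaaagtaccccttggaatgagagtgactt
Meg3: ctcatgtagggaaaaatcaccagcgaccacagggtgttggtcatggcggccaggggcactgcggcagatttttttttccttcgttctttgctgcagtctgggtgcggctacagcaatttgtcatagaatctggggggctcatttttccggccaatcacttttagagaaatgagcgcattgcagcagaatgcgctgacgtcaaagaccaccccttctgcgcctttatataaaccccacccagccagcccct

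Both motifs read the same on both strands, were searched on both, and did not overlap in these windows. A CArG box was present in the windows of Acta1 and Myh4 and not in those of Myl1 and Myh1. Over all RefSeq windows of this length 1.47% held one, and 1.62% of genes had one upstream of at least 1 start. Of the 23 higher genes 17 had an entry, and 5 of these had a CArG box (Acta1, Gsto1, Igf2, Meg3 and Myh4). For Meg3 it lay at the second start and for Igf2 at 1 of 4 starts, and a gene with several starts has more windows in which to hold one. E-boxes were common, at 69.3% of genes, and 10 of the 17 had one. The TATA motif TATAAA was found in 8 of the 17, beside 14.3% of all genes, and the AP-1 motif TGANTCA in 3 (Myh1, Plaur and Serpinb2), beside 7.82%. These matches are descriptions of the sequence and no test was made of them.

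**Figure D2:**
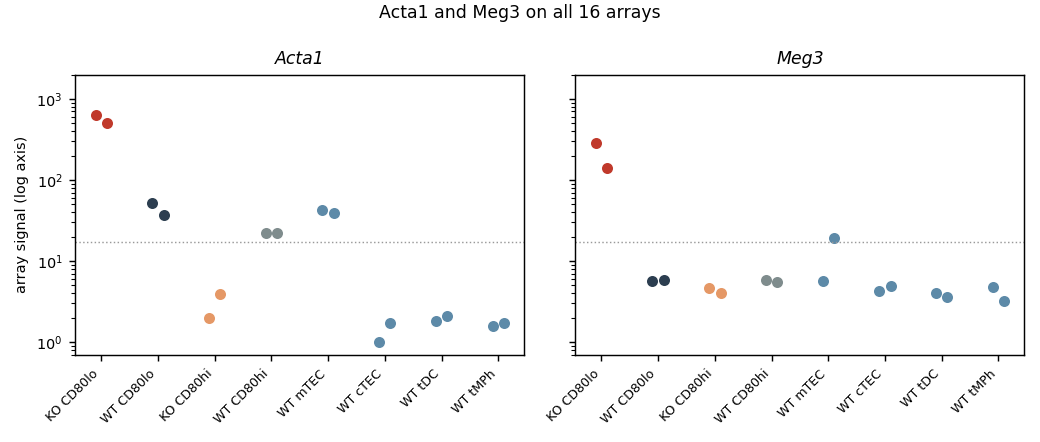
Signals of Acta1 (left) and Meg3 (right) on all 16 arrays, on a log axis, with 2 points per group and the filter level of 17.3 dotted. The knockout CD80lo arrays reach 636.3 and 508.1 for Acta1 and 284.1 and 139.0 for Meg3, above every other array.

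Acta1 and Meg3 were highest in the knockout CD80lo cells among all 8 groups. Acta1 gave 2.0 and 3.9 in knockout CD80hi cells, against 21.9 and 22.2 in wild-type CD80hi cells. It gave 42.5 and 38.8 in unfractionated mTEC, and at most 2.1 in cortical epithelium, dendritic cells and macrophages. The order was therefore knockout CD80lo, then wild-type CD80lo and unfractionated mTEC with overlapping values, then wild-type CD80hi, with the others at the bottom. Meg3 gave 4.6 and 4.0 in knockout CD80hi cells and 5.8 and 5.5 in wild-type CD80hi cells. Unfractionated mTEC gave 5.6 and 19.1, and the groups of other cell types lay between 3.2 and 4.9. Apart from the knockout CD80lo arrays and 1 mTEC array, Meg3 was thus below the filter level everywhere. Over the 16 arrays the genes most like Meg3 in log2 signal were Myl1 (Pearson r of 0.917), Myh1 (0.902) and Acta1 (0.876). Those most like Acta1 were Myl1 (0.967), Cxadr, a receptor of epithelial junctions (0.95), and Myh1 (0.949). All of these correlations include the 2 knockout CD80lo arrays, which lie far from the rest in Meg3 and Acta1.

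Imprinted genes, which are expressed from the copy of one parent, were the other list with several members past the threshold. This list too was chosen with earlier results of these data known. Meg3, a maternally expressed non-coding RNA, gave 284.1 and 139.0 in knockout CD80lo cells, against 5.7 and 5.9 in wild-type ones (4.27 ± 0.43, adjusted p = 0.000466). Its second probe set was too dim to be tested, at 13.5 and 18.4 in knockout and 7.9 and 1.3 in wild-type cells. Igf2, a paternally expressed growth factor, gave 670.9 and 427.7, against 65.2 and 66.8 (2.93 ± 0.43, adjusted p = 0.00654). Cdkn1c, a maternally expressed inhibitor of cyclin-dependent kinases, gave 677.0 and 637.8, against 119.2 and 136.6 (2.32 ± 0.30, adjusted p = 0.00229). Both parental classes were thus represented. Of 25 imprinted genes on the array 19 were tested, 1 of them, Meg3, only through the knockout CD80lo arrays. Past the threshold 3 were higher, 0 lower and 16 did not pass, where 0.303% of all genes were higher. The list median was 0.30, and 0.25 or more without any 1 of the 4 arrays except knockout array 2, where it was 0.20. Without the filter both knockout arrays lay above both wild-type arrays for 9 of the 25 (36%) and below for 2 (8%), beside 16% and 18.2% of all genes on the array. Dlk1, the paternally expressed neighbour of Meg3, gave 120.8 and 59.1 in knockout and 41.2 and 39.0 in wild-type cells (1.0 ± 0.43, adjusted p = 0.85). Ndn gave 50.8 and 63.8, against 20.9 and 33.2 (0.98 ± 0.37, adjusted p = 0.639). Meg3 passed without each array. Leaving out wild-type array 1 took Cdkn1c over the threshold (adjusted p = 0.0535), and Igf2 no longer passed when knockout array 1 or a wild-type array was left out (up to 0.119), so that 2, 3, 1 and 2 imprinted genes passed without knockout array 1, knockout array 2, wild-type array 1 and wild-type array 2.

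Krt6a was the highest-ranked gene of the skin and cornified epithelium list. This keratin of activated and stratified epithelium gave 1392.3 and 968.4 in knockout CD80lo cells, against 168.8 and 136.8 in wild-type ones (2.90 ± 0.38, adjusted p = 0.00248). Its second probe set gave 450.5 and 187.9, against 33.5 and 34.7 (2.93 ± 0.46, adjusted p = 0.0092). Of 21 tested genes of skin and cornified epithelium Krt6a alone passed, 20 did not, and the list median was 0.36 (0.01 without wild-type array 2). Krt4, a keratin of stratified mucosa, gave 318.3 and 178.8 in knockout and 83.0 and 58.3 in wild-type cells and narrowly missed the threshold (1.71 ± 0.34, adjusted p = 0.0536). Without wild-type array 2 Krt6a did not pass (adjusted p = 0.0758).

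Epha2, a receptor tyrosine kinase for ephrins, gave 214.2 and 89.6 in knockout CD80lo cells, against 7.6 and 7.8 in wild-type ones (3.52 ± 0.41, adjusted p = 0.00131). The knockout signals overlapped with those of the CD80hi cells, which gave 104.4 and 61.3 in knockout and 91.2 and 66.7 in wild type. The remaining genes of this paragraph were named after their values were seen. Plaur, the urokinase receptor, gave 401.8 and 155.4, against 33.1 and 34.9 (2.72 ± 0.42, adjusted p = 0.0092). Serpinb2, an inhibitor of plasminogen activators, gave 335.2 and 228.3, against 34.5 and 35.5 (2.82 ± 0.52, adjusted p = 0.0333). A receptor and an inhibitor of the same protease system were thus both higher. Msln, mesothelin, gave 915.2 and 558.5, against 103.7 and 79.3 (2.91 ± 0.47, adjusted p = 0.0114). Lgals3, galectin-3, gave 298.0 and 105.7, against 22.3 and 26.7 (2.65 ± 0.47, adjusted p = 0.0235). Ltf, the secreted iron-binding protein lactoferrin, gave 656.8 and 520.4, against 76.2 and 55.8 (3.07 ± 0.56, adjusted p = 0.0307). Except for Epha2, which passed without each array, these calls were lost without at least 3 of the 4 arrays in turn, with adjusted p up to 0.359.

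No gene of the general epithelial list passed the threshold. Cldn4, a tight junction claudin, gave 1584.7 and 374.9 in knockout CD80lo cells, against 96.3 and 109.9 in wild-type ones (2.85 ± 0.58, adjusted p = 0.0576). Cldn3 gave 294.2 and 165.8, against 77.3 and 57.4 (1.66 ± 0.40, adjusted p = 0.145). The knockout arrays differed widely from each other for Cldn4. Of 27 tested epithelial genes 0 passed and 4 were higher at an unadjusted p under 0.05 in limma, where 3.28% of all genes were. The summed signal of the 9 general epithelial markers was 10140.5 and 6603.8 on the knockout arrays, against 4857.1 and 4226.3 on the wild-type arrays. Its part in the results on keratins and surface proteins was not tested.

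**Figure D3:**
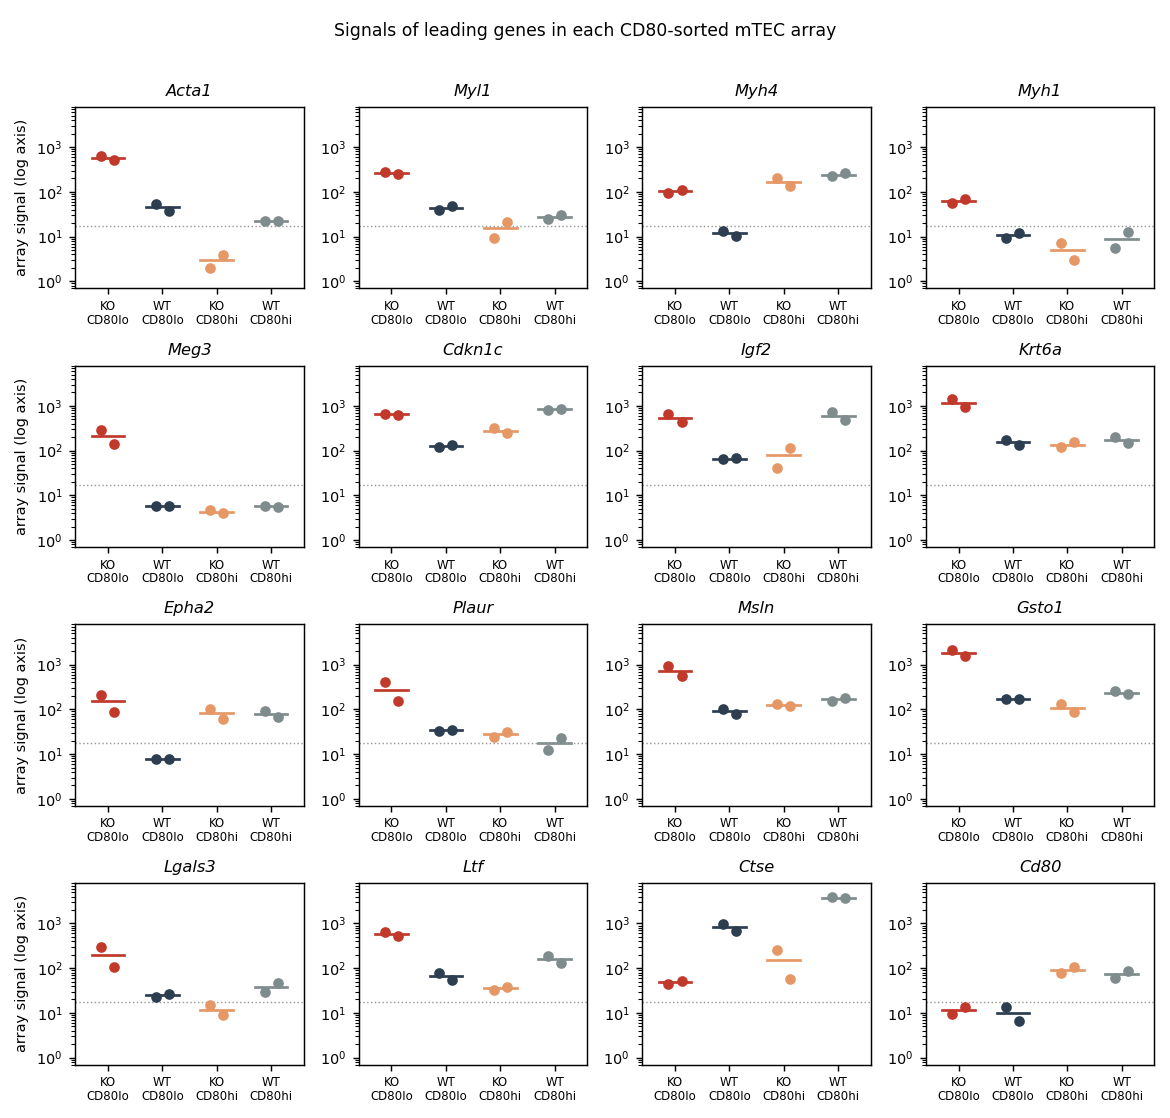
Array signals (log axis) of 16 genes in the 4 CD80-sorted groups, knockout left of wild type in each sort, with 1 point per array, a bar at the mean of the 2 arrays and the filter level of 17.3 dotted. Both knockout CD80lo arrays lie above both wild-type CD80lo arrays for the 14 genes from Acta1 to Ltf and below them for Ctse, and Cd80 separates the 2 sorts.

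Enzymes encoded by 4 of the higher genes act in detoxification or metabolism. Gsto1, an omega-class glutathione transferase, gave 2105.5 and 1567.5 in knockout CD80lo cells, against 171.6 and 170.4 in wild-type ones (3.37 ± 0.35, adjusted p = 0.000466). Gsta4, an alpha-class enzyme that conjugates products of lipid peroxidation, gave 59.1 and 57.3, against 12.8 and 9.7 (1.98 ± 0.38, adjusted p = 0.043). Ces1d, a carboxylesterase, gave 338.4 and 468.8, against 88.7 and 49.8 (2.50 ± 0.40, adjusted p = 0.0102), and its second probe set passed too (2.64 ± 0.37, adjusted p = 0.00462). Both Ces1d probe sets carry a suffix that marks probes shared with similar sequences. Arg1, the arginase of the urea cycle, gave 81.6 and 77.4, against 16.4 and 21.4 (1.84 ± 0.34, adjusted p = 0.0333). It was the only one of 31 tested liver and plasma protein genes to pass, and that list's median was -0.12. Gsto1 passed without each array, Arg1 and Gsta4 lost their calls without any 1 of the 4 (adjusted p up to 0.364 and 0.43) and Ces1d without knockout array 2 or wild-type array 2 (up to 0.249).

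The other higher genes are best known from immune or mesenchymal cells. Tnf, an inflammatory cytokine, gave 73.3 and 53.0 in knockout CD80lo cells, against 6.2 and 4.9 in wild-type ones (2.70 ± 0.41, adjusted p = 0.00741). It was the one of 42 tested chemokine and cytokine genes to pass. In CD80hi cells Tnf gave 416.2 and 241.2 in knockout and 375.4 and 241.5 in wild type, above all CD80lo arrays. Chil3, a chitinase-like protein of macrophages, gave 440.8 and 1015.8, against 164.7 and 78.4 (2.51 ± 0.46, adjusted p = 0.0333). Lyz2, the lysozyme of myeloid cells, gave 161.9 and 184.3, against 41.2 and 29.2 (2.17 ± 0.45, adjusted p = 0.0657). On the thymic macrophage arrays Chil3 gave 21.2 and 16.2, below both wild-type CD80lo arrays, while Lyz2 gave 1296.0 and 1463.8. The 8 macrophage markers, Lyz2 among them, summed to 351.2 and 341.5 on the knockout CD80lo arrays, against 166.3 and 173.3 on the wild-type ones. Of these markers 0 passed the threshold, and Adgre1, C1qb and Mrc1 were below the filter level on all 4 CD80lo arrays. Their part in these values was not tested. Twist1, a transcription factor of mesenchyme, was at 17.5 and 18, against 1.1 and 0.6 (2.0 ± 0.38, adjusted p = 0.043). These 2 signals lie just over the filter level, and no other array of the study exceeded it. Col1a2, a chain of type I collagen, passed on one probe set with 144.5 and 140.1, against 28.6 and 26.2 (2.19 ± 0.37, adjusted p = 0.0159), while its brighter probe set did not. The 10 fibroblast markers summed to 1355.7 and 1960.5 in knockout, against 1387.2 and 1139.5 in wild-type cells, with Pdgfrb, Dpt and Fap below the filter level on all 4. Tnf and Chil3 lost their calls without 3 of the 4 arrays, and Twist1 and Col1a2 without any one of them (adjusted p up to 0.48). Chil3, Twist1, Col1a2, Ces1d and Gsta4 were named after their values were seen. The last higher probe set has no gene in the annotation used.

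Few probe sets were lower. Ctse, cathepsin E, an aspartic protease of the endosomal system that is abundant in stomach and in antigen-presenting cells, gave 44.0 and 51.9 in knockout CD80lo cells, against 960.0 and 695.6 in wild-type ones (-3.97 ± 0.47, adjusted p = 0.00149). A second Ctse probe set gave 46.0 and 50.9, against 358.6 and 322.5 (-2.70 ± 0.33, adjusted p = 0.00151), and another gave 18.9 and 3.8, against 8.7 and 6.8 (0.19 ± 0.58, adjusted p = 0.999). The probe set 160799_at, without a gene in the annotation used, gave 69.6 and 41.4, against 1432.3 and 1454.7 (-4.63 ± 0.57, adjusted p = 0.00151). The last one, 97197_r_at, is annotated AI506816 and gave 78.5 and 186.6, against 792.5 and 711.1 (-2.58 ± 0.40, adjusted p = 0.00939). Over the 16 arrays its log2 signal correlated with the brighter Ctse probe set at 0.969, and that of 160799_at at 0.826. All 3 probe sets with a gene carry a suffix of the array design that marks shared or less strictly chosen probes. The 2 Ctse probe sets and 160799_at passed without each array in turn, and 97197_r_at did so only without knockout array 2 (adjusted p up to 0.133 otherwise). Each of the 4 was also lower in knockout CD80hi cells. There the brighter Ctse probe set gave 248.8 and 57.9, against 3935.6 and 3657.8 in wild type (-4.91 ± 0.47, adjusted p = 8.62e-05). The difference between the sorts did not pass for any of the 4.

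Of the genes reported earlier as Aire targets none passed in CD80lo cells. Of 18 tested targets 0 passed in either direction (0 higher and 2 lower before adjustment), both knockout arrays lay above both wild-type arrays for 1 (5.56%) and below for 3 (16.7%), beside 15.7% and 19.3% of all tested genes, and the list median was -0.10. In CD80hi cells 14 of the same 18 were lower, with a median of -3.07, where 2.88% of all probe sets were lower. Ins2, an insulin gene, gave 1.9 and 1.1 in knockout and 2.2 and 0.4 in wild-type CD80lo cells, dim throughout, while CD80hi cells gave 0.3 and 12.6 in knockout and 294.2 and 238.5 in wild type. Csn1s2a, a casein, gave 1.5 and 2.0 in knockout CD80lo cells, against 1.8 and 0.9 in wild-type ones. A few targets had a signal in CD80lo cells of both genotypes, such as the gut hormone gene Cck, with 56.9 and 35.9 in knockout and 33.1 and 38.6 in wild-type CD80lo cells (0.31, adjusted p = 0.999). In CD80hi cells Cck gave 0.6 and 1.2 in knockout and 92.6 and 93.5 in wild type. The trefoil factor gene Tff3 gave 31.0 and 8.8, against 82.9 and 58.3 in CD80lo cells (-1.75 ± 0.52, adjusted p = 0.36). Iapp, the islet amyloid polypeptide, gave 4.8 and 6.0, against 24.1 and 39.6 (-1.82 ± 0.37, adjusted p = 0.0576). Saa3, an acute-phase protein, belongs to the liver and plasma protein list and is not among the 18 targets. It gave 1.4 and 5.4, against 107.2 and 43.9 (-3.22 ± 0.77, adjusted p = 0.143). Tff3, Iapp and Saa3 had separated groups but did not pass.

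The 268 probe sets (2.88%) that were lower in knockout CD80hi cells, of 284 (3.05%) past the threshold there, were followed in the CD80lo arrays, which are separate arrays. Their median difference was -2.28 in CD80hi cells and -0.01 in CD80lo cells. In CD80lo cells 4 of them were lower and 5 were higher, both knockout arrays lay below both wild-type arrays for 73 (27.2%) and above for 64 (23.9%), beside 19.2% and 15.5% of all tested probe sets. The number lower in CD80hi cells was itself 138 without knockout CD80hi array 1 and 86 and 80 without wild-type CD80hi array 1 and 2. The wild-type CD80lo mean exceeded the filter level for 118 of them, and the wild-type CD80hi mean for 266. The 16 probe sets (0.172%) that were higher in knockout CD80hi cells had a median of 0.31 in CD80lo cells, and 1 of them, Col1a2, was higher there. Across all tested probe sets the differences in the 2 sorts correlated at a Pearson r of 0.095.

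The difference between the genotype effects in the sorts, CD80lo minus CD80hi, was tested for every probe set. It was positive at an adjusted p under 0.05 for 121 of 9319 (1.3%) and negative for 0 (0.0%) in limma. Of these 121 probe sets, 88 were among the 268 that were lower in knockout CD80hi cells. A positive difference thus often came with a fall in CD80hi cells and not with a rise in CD80lo cells. Before adjustment 649 (6.96%) were positive and 126 (1.35%) negative at p under 0.05. Of the 26 higher probe sets 22 passed this test, and Plaur, Serpinb2, Col1a2 and Twist1 did not. The CD80lo effect by which the 26 were chosen is part of this difference, so a positive value is partly set by that choice. For Igf2 the genotype effect had opposite signs, with 670.9 and 427.7 in knockout and 65.2 and 66.8 in wild-type CD80lo cells, against 41.9 and 117.5 in knockout and 717.1 and 481.2 in wild-type CD80hi cells (difference 5.90 ± 0.61, adjusted p = 0.000467). Acta1 gave a difference of 5.35 ± 0.45 (adjusted p = 0.000103), with a fall in CD80hi cells of its own (-1.80, adjusted p = 0.00556). Of the 41 tested striated muscle genes 6 were lower and 1 was higher in knockout CD80hi cells, with a median of -0.70. The difference between the sorts passed for 8 of them. Over all 6922 tested genes 208 were lower and 13 higher in knockout CD80hi cells, with a median of -0.05, and the difference passed for 85. Like Acta1, the genes Cdkn1c, Arg1 and Gsta4 were higher in knockout CD80lo cells and lower in knockout CD80hi cells. Compared with wild-type CD80hi cells, both knockout CD80lo arrays were above both of those arrays for 16 of the 26 higher probe sets and below both for 8. They were above each of the 14 other arrays of the study for 13 of the 26. Some of the higher genes thus reached a level seen in no other group, while others, such as Myh4, Tnf and Serpinb2, did not reach that of wild-type CD80hi cells. The 26 were chosen for being high on the knockout CD80lo arrays, so that lying above other arrays is partly set by that choice. Shares over all tested probe sets were not counted for these comparisons. The count of 121 was 60 without knockout CD80lo array 1, 68 and 37 without wild-type CD80lo array 1 and 2, 69 without knockout CD80hi array 1, and 34 and 42 without wild-type CD80hi array 1 and 2.

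**Figure D4:**
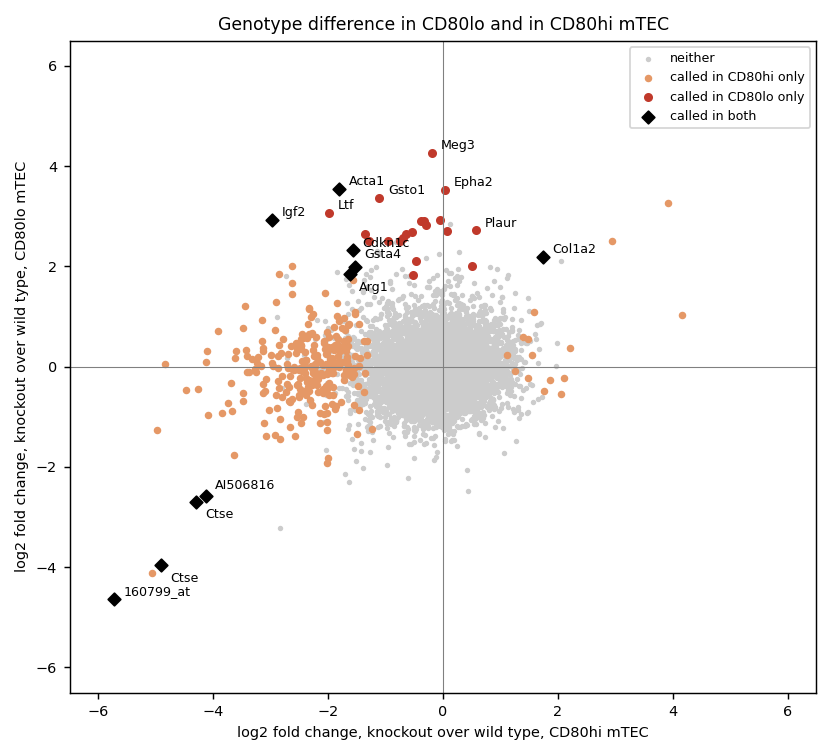
Genotype difference (log2 fold change, knockout over wild type) in CD80lo mTEC on the vertical axis against that in CD80hi mTEC on the horizontal axis, 1 point per tested probe set, with probe sets past the threshold in either or both sorts marked. The 268 probe sets lower in CD80hi cells lie on both sides of 0 in CD80lo cells (median -0.01), the Ctse and 160799_at probe sets are lower in both, and Acta1, Igf2, Cdkn1c, Arg1 and Gsta4 are higher in CD80lo and lower in CD80hi cells.

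Most other gene lists had no member past the threshold in CD80lo cells. The cell cycle list had 0 of 35 tested genes past it (0 higher and 2 lower before adjustment), while both knockout arrays lay below both wild-type arrays for 21 and above for 0, beside 19.3% and 15.7% of all tested genes, with a median of -0.40. Tk1, the thymidine kinase of dividing cells, gave 69.3 and 90.1 in knockout, against 205.3 and 169.4 in wild-type CD80lo cells (-1.19 ± 0.36, adjusted p = 0.362). The list median stayed between -0.47 and -0.29 without each array in turn. Of 24 MHC class I and interferon-response genes 0 passed (4 were lower before adjustment, and 0 without knockout array 1 or wild-type array 2), 10 had both knockout arrays below and 1 above, and the median was -0.34. Cxcl9, a chemokine induced by interferon, gave 59.2 and 108.8, against 235.5 and 493.4 (-2.02 ± 0.40, adjusted p = 0.0522). Of 19 tested mammary, salivary and lacrimal gland genes and 20 pancreas genes 0 passed in CD80lo cells, while 15 and 9 were lower in CD80hi cells. Over all 6922 tested genes 21 were higher and 2 lower in CD80lo cells, and 208 were lower in CD80hi cells. With so few calls in CD80lo cells, lists of this size would mostly have none.

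Markers of other cells in the thymus varied among the 4 arrays. The 12 thymocyte markers, 10 of them on the array, summed to 861.9 and 465.3 on the knockout CD80lo arrays, against 308.8 and 1368.8 on the wild-type ones. Endothelial markers summed to 170.0 and 717.9, against 850.9 and 516.2, dendritic cell markers to 356.1 and 184.9, against 403.4 and 282.9, and B cell markers to 210.3 and 209.0, against 217.6 and 225.0. The longer B cell list, which holds immunoglobulin genes too, summed to 8000.5 and 826.1, against 2651.8 and 3496.2. Most of that came from Ighm, the immunoglobulin mu heavy chain, with 7096.3 and 266.5 in knockout and 1709.4 and 2458.5 in wild-type CD80lo cells, so that the knockout arrays lay on both sides of the wild-type ones. The thymocyte, endothelial and dendritic cell sums overlapped between genotypes, and the sum of the B cell markers was slightly lower in the knockout. By their brightest probe sets, 0 markers of the thymic and blood cell types passed the threshold. The part of other cells in the results was not tested.

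**Figure D5:**
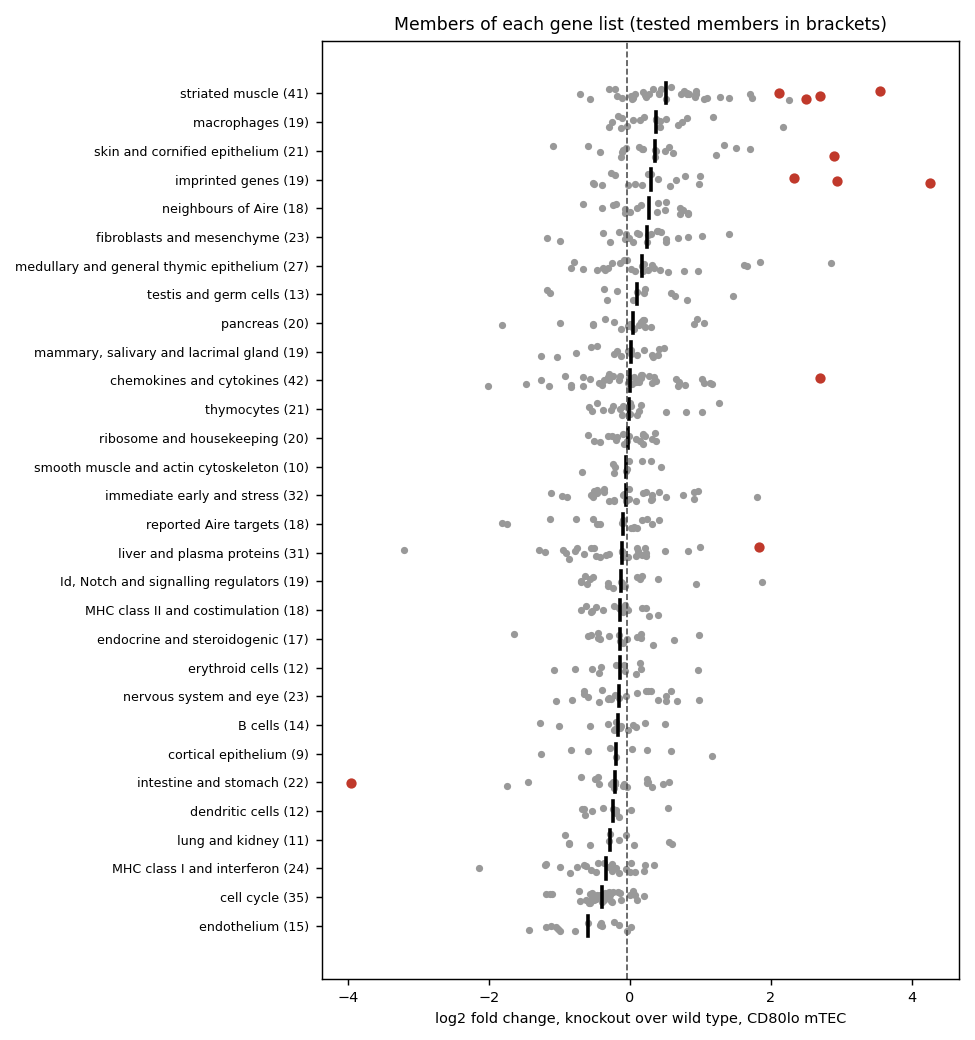
Log2 fold change (knockout over wild type, CD80lo mTEC) of the tested members of each gene list, 1 point per gene by its brightest probe set, with genes past the adjusted threshold in red, list medians as black bars and the median of all 6922 genes (-0.05) dashed. Muscle genes lie furthest to the right by their median (0.51), and endothelial (-0.59) and cell cycle (-0.40) genes furthest to the left.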

How the data were processed

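RNA of sorted mouse thymic cells was measured on Affymetrix arrays in 8 groups of 2, per the labels. The deposited values are linear intensities, with a single one for each probe set on each array. Each array had a 2% trimmed mean of 100.1, and the values were used as deposited. Which software and background correction the authors used is not stated in any label or header. Left out were 66 control probe sets and 3103 others not above 17.3 (the 40th percentile of all values) on at least 2 of 16 arrays. A constant of 4.8 (the 20th percentile) was added before log2. Of the non-control probe sets 10833 had 1 gene symbol in the platform annotation, 396 several and 1193 none listed. The GRCm38.p6 gene table gave the current symbol for 10817, and 16 kept theirs.

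Comparisons were contrasts in 1 limma model (3.58.1, R 4.3.3, the data.table package at version 1.17.8) over all 16 arrays, with trended eBayes, 2-sided (degrees of freedom 8 residual, 5.97 prior), with Benjamini-Hochberg adjustment over 9319 probe sets and a threshold of 0.05. Higher, lower, rose and fell refer to this threshold unless signals are given. Lists (31, with 601 tested genes) were described by the brightest probe set per gene, without a set test. The members and lists were chosen with earlier results of these data known. The named genes were the genes past the threshold (up to 10 per direction), the 10 per direction with the smallest p and separated groups, the 2 list members with the smallest p, the 10 largest falls in CD80hi cells, Aire, Cd80, Ins2, Gad1, Meg3 and Acta1, and the 3 genes most like Meg3 and Acta1. Other listed genes were named to show a list. No 2 replicate arrays held identical tables, and no per-array column was left unmapped.

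On simulated data for the CD80lo comparison (9319 probe sets, 50 planted changes per size), the fit found 4% of changes of log2 size 1, 70% of size 2, 98% of size 3 and 100% of size 4, with 10 false among 146 calls. The simulated noise was independent between arrays and had the same spread in all groups. Deviations of the real arrays were correlated, so the false calls of the simulation do not give the number in the data. Alternatives were quantile normalisation, other constants and filters, no trend, fewer groups, a replicate block and each array left out. Figures were drawn with matplotlib 3.10.9.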

Additional observations from a re-analysis of the deposited data

Results flagged for a closer look

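The genotype effect differed between CD80lo and CD80hi cells for 18 of the higher genes by their brightest probe sets (limma interaction, knockout minus wild type in CD80lo cells minus the same in CD80hi cells, log2 scale, adjusted p under 0.05). It was 5.90 for Igf2, 5.35 for Acta1, 5.06 for Ltf, 4.48 for Gsto1, 4.47 for Meg3 and 4.01 for Lgals3. For Cdkn1c it was 3.88, for Chil3 3.80, for Gsta4 3.51, for Epha2 3.49, and for both Arg1 and Ces1d 3.46. The muscle genes Myl1, Myh4 and Myh1 gave 3.25, 3.24 and 2.58, and Msln, Krt6a and Tnf gave 3.31, 3.22 and 2.63. Every one of these has the CD80lo effect above the CD80hi effect, and they were looked at because they were higher in CD80lo cells, so that the direction is partly set by that choice.

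A signal outside the main measurement also stood out. The 18S ribosomal RNA control probe sets gave 1893.2 (3′ end), 874.4 (5′ end) and 566.8 (middle) on knockout CD80lo array 1, against 286.6, 201.6 and 143.3 on knockout CD80lo array 2. The wild-type CD80lo arrays reached at most 376.3, 286.4 and 157.9. In knockout CD80hi cells these probe sets gave 562.0, 120.8 and 138.0 on array 1, against 48.2, 34.7 and 26.5 on array 2. The highest signal of any probe set was 13671.3 on knockout CD80lo array 1 and 8597.9 on the other knockout CD80lo array, against 10265.7 and 9840.7 on the wild-type ones. Its part in the results was not tested beyond the values without this array.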

How the results depend on the processing

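Against 30 probe sets past the threshold in CD80lo cells, there were 18 with a constant of 1, 47 with a constant at the 40th percentile, 16 with only the groups compared and 8 to 25 with each array left out. The difference between the sorts (121) gave 44, 216 and 77 under the same settings, 34 to 99 with each array left out, and 44 without array 1 of both knockout groups, an alternative chosen after seeing the data. CD80hi cells (284) gave 180 with a constant of 1 and 81 to 220 with each array left out. Listed genes past the threshold (11) were 17 with quantile normalisation, 18 with the larger constant and 4 to 11 with each array left out. Quantile normalisation shifted the median difference in CD80lo cells by 0.033. With the replicate number as a block the counts were 51 in CD80lo cells (40 higher, 11 lower), 174 between the sorts, 360 in CD80hi cells and 18 listed genes. Nothing in the labels says that the numbers pair samples. Deviations of same-numbered arrays correlated between 0.027 and 0.526 over 28 pairs of groups and over 0.1 in 20 of them, at 0.028 for knockout and wild-type CD80lo cells and at 0.517 for the 2 knockout sorts. All of these correlations were positive, though not every one exceeded 0.1. The main fit did not take the numbers to pair the arrays, and whether same-numbered arrays shared a batch was not tested. Of 1116 values for 94 named or called genes under these settings, 0 changed sign among genes past the threshold, 79 lost the threshold and 27 gained it. The cause of these changes was not tested, except that leaving out an array leaves fewer samples. With 2 arrays per group and dim wild-type signals, changes near a log2 size of 1 were mostly not detectable.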

Other observations

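Several other genes had large differences in CD80lo cells without passing the threshold. Nupr1, a chromatin-associated stress protein, gave 786.1 and 472.7 in knockout CD80lo cells, against 123.4 and 90.2 in wild-type ones (2.48, adjusted p = 0.118). Hpgd, the enzyme that inactivates prostaglandins, gave 82.8 and 323.5, against 815.4 and 838.6 (-2.29, adjusted p = 0.36). F5, coagulation factor V, gave 16.1 and 44.3, against 1.5 and 1.8 (2.31, adjusted p = 0.143). Cd59a, an inhibitor of the complement membrane attack complex, gave 29.3 and 16.8, against 123.0 and 119.1 (-2.21, adjusted p = 0.0576). Hes1, a transcriptional repressor downstream of Notch, gave 786.0 and 620.9, against 109.6 and 318.7 (1.87, adjusted p = 0.301). These genes were named after their values were seen, apart from Cd59a and Hes1.

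Pth, parathyroid hormone, gave 1454.7 and 516.8 in knockout CD80lo cells, against 595.3 and 321.0 in wild-type ones (0.98, adjusted p = 0.937), with overlapping groups. Xist gave 62.8 and 54.4, against 64.0 and 198.5 (-0.90, adjusted p = 0.982).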
